A study of Mus musculus with 18 samples.

Results

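Age-related expression was examined for 10 genes that sense foreign or misplaced nucleic acids or restrict retroelements: Ifih1, Ddx58, Mavs, Tlr3, Zbp1, Eif2ak2, Adar, Trex1, Samhd1 and Mov10. They were taken by name from an RNA-seq table of 23420 genes, and all 10 were among the 13178 genes that passed the filter on low values (a mean of 10 or more over the libraries) and entered the tests. RNA was measured in the hindlimb skeletal muscle of C57BL/6J females that were 2, 20 or 28 months old, with 3 libraries of biological replicates for each of these ages. DNA methylation was measured by MBD-seq, in which a methyl-CpG binding domain protein captures methylated DNA fragments, in muscle and in splenic T cells of the same ages. The DNA of 3 mice was pooled per age before capture, so that 1 column per age and tissue was available and no MBD difference could be tested.

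Cytosolic RNA sensors bind double-stranded or 5′-triphosphate RNA and pass the signal to the mitochondrial adaptor Mavs, which leads to type I interferon and, through it, to the induction of many antiviral genes. Several sensors are themselves induced by interferon. Transcripts of retroelements can be recognised by the same proteins, and their DNA copies by separate sensors of DNA. Enzymes such as Adar, Trex1 and Samhd1 limit this by editing RNA, degrading DNA or depleting nucleotides.

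The start regions of these genes were searched in RefSeq sequence (GRCm38.p6, from 250 bases before to 50 bases after each transcript start) because interferon acts through short response elements. Of the 10 genes, 9 were matched; Zbp1 was not. The core of the interferon-stimulated response element, GAAA repeated after 2 bases of any kind and searched on both strands, was present in windows of Ifih1, Ddx58 and Eif2ak2, against 3.99% of the 27025 genes with a window. These matches lay just downstream of the start and are shown on the strand of the gene with the match in capitals; in Ddx58 the element lies on the opposite strand.
Ifih1, chr2:62646206-62646233, minus strand: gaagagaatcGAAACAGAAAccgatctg
Ddx58, chr4:40239804-40239833, minus strand: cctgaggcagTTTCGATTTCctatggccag
Eif2ak2, chr17:78882535-78882564, minus strand: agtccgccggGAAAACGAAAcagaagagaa

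The core of the gamma-activated sequence, TTCNNNGAA, whose defined letters read the same on both strands, was present in a window of Eif2ak2, Adar and Samhd1, against 9.55% of genes. It is shown because Adar and Samhd1 had the lowest p-values of the 10 genes over the 3 ages. A match is a description of the letters and not evidence of binding.
Eif2ak2, chr17:78882732-78882760, minus strand: ctgcagagctTTCCCAGAAtggaagccag
Adar, chr3:89730730-89730758, plus strand: gggaagccttTTCAAGGAAacgaaagtga
Samhd1, chr2:157135313-157135341, minus strand: acaccaccctTTCGGAGAAacacaagggc

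The libraries held 20203833 to 71115244 reads on genes, and expression is given as the normalized count, which is the reads on a gene divided by a size factor of its library. Of the muscle fibre markers checked against the tissue label, 7 of 7 were detected and together made up 9.15% to 15.8% of the reads on genes. Libraries stood apart in several ways. The 2-month replicate 1 held marrow markers, including Ngp and S100a8, at a summed normalized count of 4391 over 6 genes, against 13.1 to 69.2 in the other 8 libraries. The 3 libraries numbered 3 differed from those numbered 1 and 2 at every age in the share of unaligned reads, which was 2.36% to 2.50% against 4.40% to 5.39%.

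The 10 genes spanned a wide range of levels. Per kilobase of merged RefSeq exon and averaged over the 9 libraries, Mavs was highest at a normalized count of 679 per kb, followed by Trex1 at 330 and Samhd1 at 199. Their means at single ages did not overlap with one another, since they ran from 596 to 753 for Mavs, from 322 to 343 for Trex1 and from 180.4 to 225 for Samhd1. Eif2ak2 (52.9 per kb), Ifih1 (47.9), Ddx58 (41.7) and Adar (33.7) formed a middle group whose neighbours overlapped in their means by age. Tlr3 (18.3), Mov10 (10.9) and Zbp1 (9.04) were lowest, and Mov10 and Zbp1 overlapped. For Trex1 the value is uncertain, because 99.9% of its exon bases are shared with the read-through gene Atrip-trex1 on the same strand.

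Few of the 10 genes differed between ages. In a limma fit over all 13178 genes, Mov10 was lower at 20 than at 2 months and Samhd1 was higher at 28 than at 2 months, and these were the only members called at an adjusted p under 0.05. At 20 against 2 months 0 members were called higher, where 9.42% of all genes tested were, and 1 was called lower, where 7.13% were; 3 members, Mavs, Adar and Mov10, had an unadjusted p under 0.05, as did 31.5% of all genes. At 28 against 2 months 1 member was called higher and 0 lower, against 7.53% and 6.24% of all genes. Between 20 and 28 months 0 members were called in either direction, against 0.212% of all genes higher and 0.167% lower, and edgeR and DESeq2 also called 0. In that comparison 2 members, Adar and Samhd1, had an unadjusted p under 0.05, against 10.6% of all genes. The limma F-test for any difference among the 3 ages called 0 members against 16.0% of all genes (unadjusted p under 0.05 for 4 members, Mavs, Adar, Samhd1 and Mov10, and for 30.9% of all genes), while edgeR called 0 and DESeq2 called 2, Samhd1 and Mov10. A single call among 10 genes is near the background at 20 against 2 and at 28 against 2 months. The libraries of the 2 ages did not overlap for 3 members at 20 against 2 months, all lower (Ddx58, Eif2ak2 and Mov10). Of all genes, 17.6% lay wholly lower and 18.4% wholly higher. At 28 against 2 months 2 members lay wholly higher (Ifih1 and Samhd1), as did 15.3% of all genes, with 15% lower. At 28 against 20 months 3 did (Ifih1, Adar and Samhd1), as did 8.63%, with 8.84% lower.

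**Figure D1:**
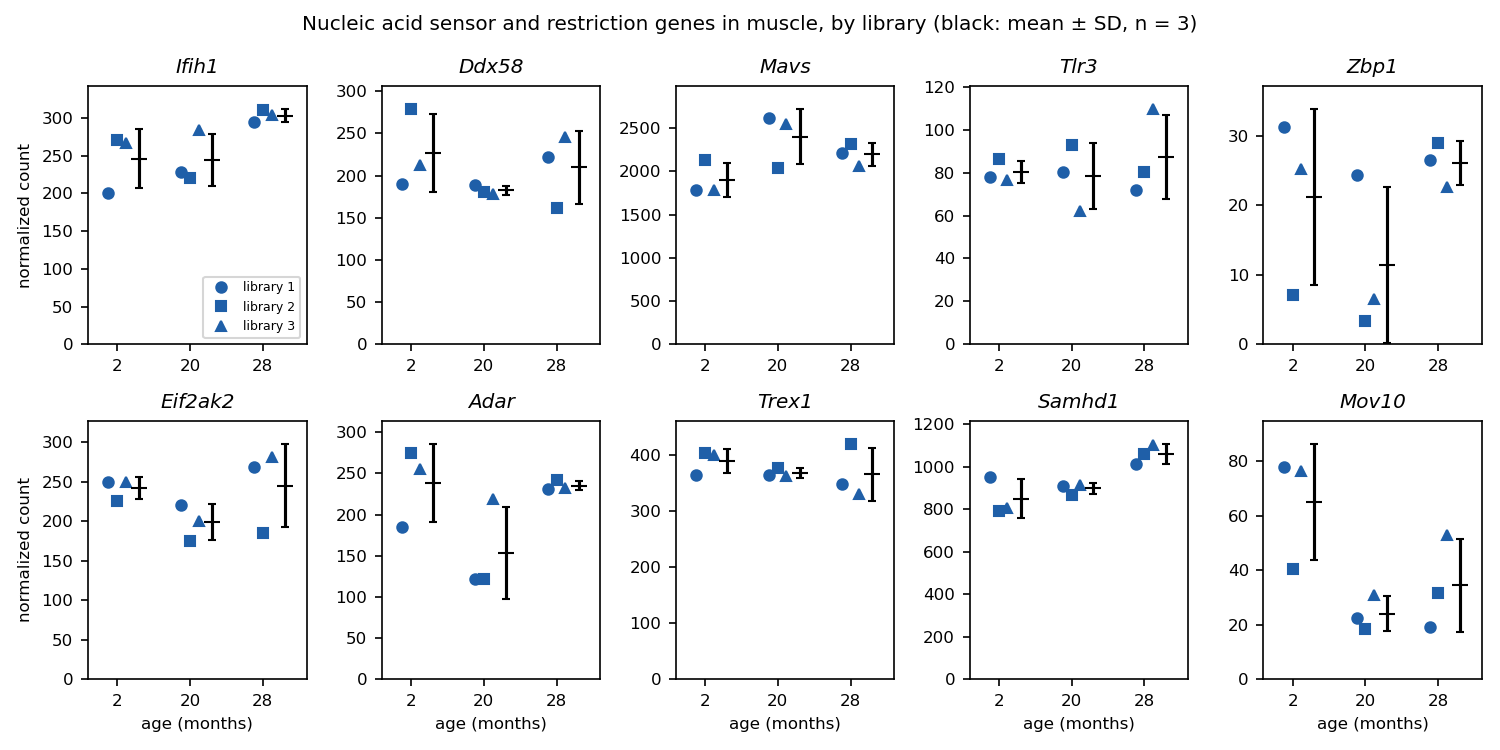
Normalized counts (vertical axes, each from 0) of the 10 genes in each muscle RNA-seq library against age in months; symbols mark the library number and black bars give the mean ± SD of 3 libraries. Mov10 at 20 months (18.6 to 31.1) lies below all 2-month libraries, Samhd1 at 28 months (1011 to 1104) lies above all 2-month libraries, and 2 of the 3 Adar libraries at 20 months sit at 121.

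Mov10 encodes an RNA helicase that restricts LINE1 retrotransposition. Its normalized counts were 78.0, 40.5 and 76.5 at 2 months, 22.4, 18.6 and 31.1 at 20 months, and 19.0, 31.8 and 52.8 at 28 months. All 3 libraries at 20 months were below the lowest at 2 months, whereas the 28-month libraries overlapped both other ages. The difference at 20 against 2 months was -1.37 on the log2(normalized count + 1) scale (SE 0.43, limma adjusted p = 0.0469), a fold of 0.387, and that at 28 against 2 months was -0.95 (SE 0.43), with an unadjusted p of 0.0468. It rested on few reads, 11 to 106 in the libraries of these 2 ages. The call was lost on removal of any 1 of 6 libraries: adjusted p was 0.139 without 2-month replicate 1, 0.132 without 2-month replicate 3, 0.124, 0.142 and 0.0563 without 20-month replicates 1, 2 and 3, and 0.0625 without 28-month replicate 2. It was also 0.13 without the 3 libraries numbered 3 and 0.175 with equal sums. With all libraries it was 0.0457 with edgeR, 0.0165 with DESeq2 and 0.0279 with a block for the replicate number in limma.

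Fibroblast transcripts were also lower at 20 than at 2 months. The summed normalized count of 3 of 3 fibroblast markers, Pdgfra, Col1a1 and Col3a1, was 24045 to 47175 at 2 months, 4790.2 to 5772 at 20 months and 5662 to 7323 at 28 months. These 28-month sums did not overlap those of 2 months, whereas the 28-month libraries of Mov10 did. The sum of 3 of 3 adipocyte markers went from 1313 to 3934 at 2 months to 376 to 508 at 20 months and 535 to 1323 at 28 months. Their part in the result was not tested, and in whole muscle fewer cells of a type and less RNA per cell cannot be told apart.

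Samhd1, a phosphohydrolase that depletes deoxynucleotides and thereby limits reverse transcription, was measured at 954, 789 and 805 at 2 months, 909.7, 867 and 916 at 20 months, and 1011, 1062 and 1104 at 28 months. All 28-month libraries were above all younger ones, and the 2-month and 20-month libraries overlapped. The difference at 28 against 2 months was 0.32 on the log2 scale (SE 0.10, adjusted p = 0.0439), a fold of 1.25, and that at 28 against 20 months was 0.24 with an unadjusted p of 0.029. An exact permutation of the F statistic over all 1680 arrangements of the 9 libraries gave p = 0.0179, where the smallest possible p was 0.00357. The highest 2-month value came from the library with marrow markers, and without it the difference was 0.41 (adjusted p = 0.0259). Removing any other single library, of whatever age, ended the call, with adjusted p from 0.0611 (without 20-month replicate 2) to 0.132 (without 28-month replicate 3), and without the 3 libraries numbered 3 the difference was 0.26 (adjusted p = 0.282). With all libraries the adjusted p was 0.0414 with edgeR, 0.0252 with DESeq2, 0.0323 with a block for the replicate number in limma and 0.553 with equal sums. The sum of 6 of 7 macrophage markers, a cell type that expresses Samhd1, was 3020 to 4482 at 2 months, 2655 to 2733 at 20 months and 2934 to 3973 at 28 months. The 28-month sums thus overlapped those of 2 months and lay above those of 20 months, and their part in the Samhd1 differences was not tested.

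Adar edits adenosine to inosine in double-stranded RNA. Its normalized counts were 185, 275 and 255 at 2 months, 121, 121 and 218 at 20 months, and 232, 242 and 232 at 28 months. Every 20-month library was below every 28-month library, but 20-month replicate 3 lay within the 2-month range. The differences were -0.67 at 20 against 2 months (SE 0.23, adjusted p = 0.0662) and 0.67 at 28 against 20 months (SE 0.23, adjusted p = 0.316), and that at 28 against 2 months was 0.001 (95% interval -0.50 to 0.50). The 2 contrasts share the 20-month libraries. Without 20-month replicate 3 the first difference was -0.95 (adjusted p = 0.0109), and with a term for the libraries numbered 3 its adjusted p was 0.0391. It was -0.52 (adjusted p = 0.224) without 20-month replicate 1 and -0.53 (0.213) without 20-month replicate 2, and the adjusted p was 0.337 with equal sums, 0.0987 with edgeR and 0.0723 with DESeq2.

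Among the RNA sensors, Ifih1 (MDA5), which binds long double-stranded RNA, was at 201, 271 and 266 at 2 months, 228, 221 and 284 at 20 months, and 294, 311 and 304 at 28 months. All 28-month libraries were above those of both younger ages, but the differences of 0.31 against 2 months (SE 0.16) and 0.32 against 20 months (SE 0.16) did not pass the test, with unadjusted p of 0.0728 and 0.0682. Ddx58 (RIG-I), the sensor of 5′-triphosphate RNA, was at 189, 278 and 213 at 2 months, 189, 181 and 178 at 20 months, and 222, 162 and 245 at 28 months. All 20-month libraries were below those of 2 months, the nearest by less than 1 count, and the 28-month libraries overlapped both. None of its 3 differences passed, the interval at 20 against 2 months being -0.71 to 0.12. Tlr3, the endosomal receptor of double-stranded RNA, ranged from 62.1 to 109 in the 9 libraries with all ages overlapping, and its difference at 28 against 2 months was 0.10 (95% interval -0.44 to 0.63).

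Mavs, the adaptor of Ifih1 and Ddx58, was at 1788, 2130.4 and 1782 at 2 months, 2617, 2042 and 2545 at 20 months, and 2211, 2319 and 2059 at 28 months. At 20 months 2 of the 3 libraries were above all those of 2 months, and 20-month replicate 2 was not. The difference at 20 against 2 months was 0.33 (SE 0.11) with a limma adjusted p of 0.0524, and with edgeR the adjusted p was 0.0473. Its side of the threshold also changed with the libraries and scaling: the limma adjusted p was 0.021 without 20-month replicate 2, 0.0236 without 2-month replicate 2, 0.198 without 20-month replicate 1 and 0.467 with equal sums.

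Zbp1, a sensor of Z-form nucleic acid that can trigger necroptosis, was the lowest gene of the group. It was at 31.2, 7.05 and 25.3 at 2 months, 24.3, 3.38 and 6.54 at 20 months, and 26.6, 29.0 and 22.6 at 28 months, which corresponds to 2 to 35 reads per library. The 20-month and 28-month libraries overlapped through 20-month replicate 1. Its difference of 1.52 at 28 against 20 months had an SE of 0.71 (adjusted p = 0.478) and did not pass, and its coefficient of variation between libraries of 1 age ran from 12.3% (28 months) to 98.9% (20 months). Eif2ak2 (PKR), the kinase that halts translation upon binding double-stranded RNA, was at 250, 226 and 251 at 2 months, 220.4, 175 and 201 at 20 months, and 269, 185 and 281 at 28 months. All 3 of its 20-month libraries were below those of 2 months, but its difference of -0.29 (SE 0.18, adjusted p = 0.301) did not pass. Trex1, a 3′ exonuclease that removes cytosolic DNA, ranged from 330.3 to 420 over the 9 libraries with all ages overlapping, and its difference at 28 against 2 months was -0.10 (95% interval -0.37 to 0.17).

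**Figure D2:**
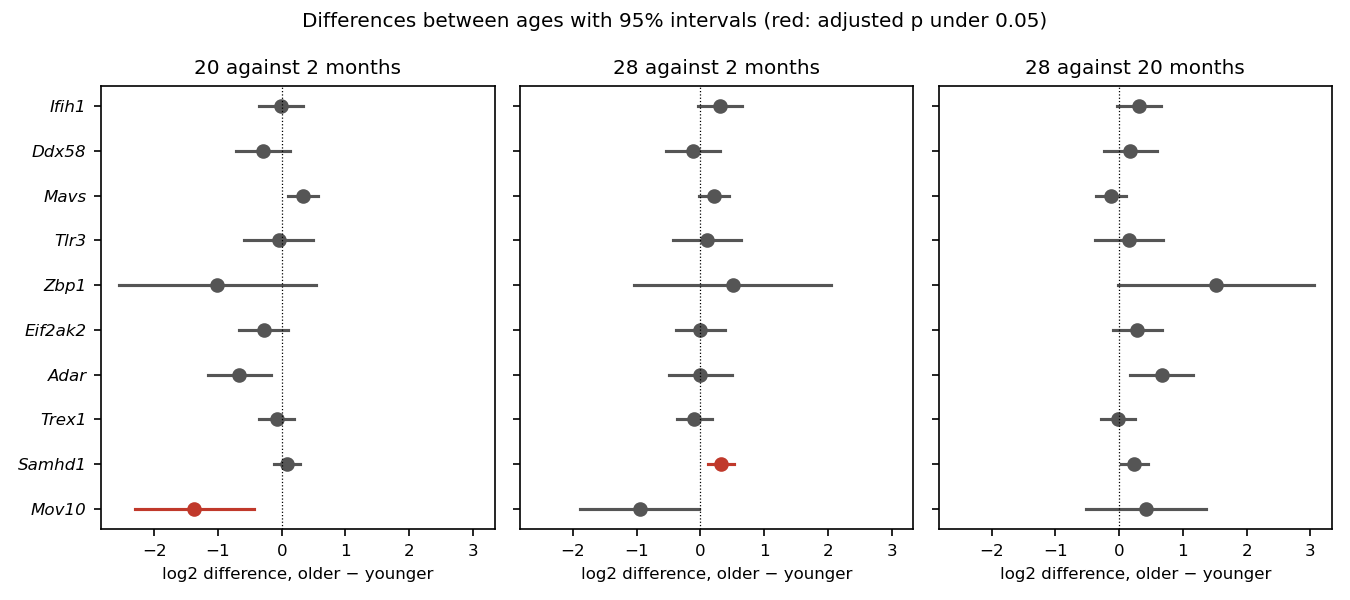
Difference in mean log2(normalized count + 1) between ages (horizontal axis, older minus younger) for the 10 genes with the 95% interval of the limma fit; red marks an adjusted p under 0.05. Mov10 at 20 against 2 months (-1.37) and Samhd1 at 28 against 2 months (0.32) are the red points, and the intervals are widest for Zbp1.

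Taken as a list, the 10 genes had a median difference of -0.18 at 20 against 2 months, beside -0.02 for all genes tested, and 2 of 10 were above 0 (47.9% of all genes). At 28 against 2 months the median was 0.05 beside -0.01, with 6 of 10 above 0 (48.5%). At 28 against 20 months it was 0.26 beside 0.00 (-0.003), with 8 of 10 above 0 (49.3%). The comparisons of 20 against 2 and of 28 against 20 months share the 20-month libraries, so a low value at 20 months enters both. These medians rested on single libraries: that at 20 against 2 months was -0.10 without 2-month replicate 2, that at 28 against 2 months was -0.01 without 28-month replicate 3 and 0.16 without 28-month replicate 2, and that at 28 against 20 months was 0.12 without 28-month replicate 3. Over the 9 libraries, the genes whose profile was most like the mean profile of the 10 were Smug1 (Pearson r = 0.971), Mtif3 (0.967), Mlst8 (0.966), Ifi27l2a (0.963) and Wdr92 (0.959), chosen as the highest of all genes tested. The nearest to Samhd1 was Rnf24 (0.978) and the nearest to Mov10 was Dsel (0.973).

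The other genes of the pathway were taken from lists set up by their known roles. Of 16 antiviral effectors tested, which are interferon-induced genes acting downstream of the sensors, 5 were lower and 0 higher at 20 against 2 months (7.13% and 9.42% of all genes), with a list median of -0.31. Isg15, a ubiquitin-like modifier, fell from 55.6 ± 17.1 to 18.2 ± 5.28 (SD, n = 3; log2 difference -1.55, SE 0.41, limma adjusted p = 0.0213). Ifit3, which binds viral RNA complexes, fell from 142 ± 50.7 to 69.4 ± 5.16 (-0.97, adjusted p = 0.022), Oasl2 fell from 149 ± 23.1 to 80.9 ± 1.47 (-0.86, adjusted p = 0.00945) and Bst2, the membrane tether of virions, fell from 286 ± 34.7 to 164 ± 20.0 (-0.80, adjusted p = 0.026). The fifth, Ifitm3, which blocks viral entry, fell from 1128 ± 77.6 to 842 ± 73.6 (-0.42, adjusted p = 0.017). Counts from Ifit3 and other members of multigene families are uncertain, since reads shared with near-identical copies could be lost or split. Left out 1 at a time, 2-month replicate 2 or 20-month replicate 1 lowered the count of 5 to 1, and it was 0 without the 3 libraries numbered 3 or when the libraries were scaled to equal sums. Over all genes, the number called lower went from 939 to 416 without the libraries numbered 3 and to 232 with equal sums. Oasl2 alone kept its call without any 1 library (highest adjusted p 0.0377), while the highest adjusted p of the other 4, each without 20-month replicate 1, was 0.0836 for Isg15, 0.0758 for Ifit3, 0.0914 for Bst2 and 0.0831 for Ifitm3.

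At 28 against 2 months the list median of the effectors was 0.17, and 1 of 16, Ifit2, was higher, where 7.53% of all genes were (206 ± 59.9 to 321 ± 49.9; 0.67, adjusted p = 0.0433). At 28 against 20 months the list median was 0.65. Here Ifitm3 rose to 1303 ± 143 (0.63, adjusted p = 0.0227) and was the single effector called by limma and by edgeR, while DESeq2 called 3 and limma on equal sums called 0 (adjusted p = 0.584 for Ifitm3). Of all genes, limma called 0.212% higher in this comparison, edgeR 0.228%, DESeq2 0.946% and limma on equal sums 0.114%. That call was lost without any one of the 28-month libraries or without 20-month replicate 1 (adjusted p = 0.129) or 3. The call of Ifit2 was lost without 2-month replicate 1 (adjusted p = 0.16) and without 6 other libraries, and with edgeR (adjusted p = 0.066). The macrophage marker sums given above, 2655 to 2733 at 20 months, were below those of both other ages. The fibroblast and adipocyte sums given beside Mov10 also had their lowest values at 20 months, 4790.2 to 5772 and 376 to 508. The part of these cell types in the differences was not tested. The summed count of T-cell markers (5 of 5) was 5.29 to 9.39 at 2 months, 8.44 to 20.55 at 20 months and 11.39 to 28.3 at 28 months. Markers of dendritic cells (4 of 4) were at 52.9 to 80.2. Their part was not tested either.

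Of 14 tested genes that carry the signal from the cytosolic RNA sensors, 2 were higher and 1 lower at 20 against 2 months (9.42% and 7.13% of all genes). Irf7, the interferon-induced transcription factor that amplifies the response, went from 153 ± 9.27 at 2 months to 54.6 ± 19.3 at 20 months (log2 difference -1.53, adjusted p = 0.0029) and 161 ± 44.3 at 28 months (1.58 against 20 months, adjusted p = 0.0274). Its call at 20 against 2 months held without any 1 library (highest adjusted p 0.0125) and with equal sums (0.00592), but that at 28 against 20 months was lost without any one of the 28-month libraries or without 20-month replicate 1 or 2 (highest adjusted p 0.115). Traf3, a ubiquitin ligase downstream of Mavs, rose from 1049 ± 78.7 to 1532 ± 83.2 at 20 months (0.55, adjusted p = 0.00132) and was at 1463 ± 40.9 at 28 months (0.48 against 2 months, adjusted p = 0.00318). Azi2, an adaptor of the kinase Tbk1, rose from 1152 ± 31.8 to 1446 ± 39.1 at 20 months (0.33, adjusted p = 0.0306). Both calls of Traf3 held without any 1 library (highest adjusted p 0.0177) but not with equal sums (0.139 at 20 and 0.2 at 28 against 2 months), and that of Azi2 was lost without 2-month replicate 1 or 3 or any 20-month library (highest 0.0972).

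Of 14 tested genes of interferon signalling, 0 were higher and 3 lower at 20 against 2 months, where 9.42% and 7.13% of all genes were. These were Socs1, an inhibitor of the pathway (24.6 ± 7.82 to 4.20 ± 0.744; -2.25, adjusted p = 0.035), Stat2 (240.1 ± 30.1 to 152 ± 32.6; -0.67, adjusted p = 0.0273) and the receptor chain Ifngr2 (3891 ± 229 to 3077 ± 57.2; -0.34, adjusted p = 0.00951). The call of Ifngr2 held without any 1 library, that of Stat2 was lost without 2-month replicate 2 or 3 or 20-month replicate 2 (highest adjusted p 0.108), and that of Socs1 without 2-month replicate 2 or 3 or any 20-month library (highest 0.112). At 28 against 2 months 3 were lower (6.24% of all genes), and these calls held without any 1 library (highest adjusted p 0.0235, for Irf2). Without the 3 libraries numbered 3, the calls of Ifngr2 at 20 against 2 months (adjusted p = 0.0565) and of Irf2 at 28 against 2 months (0.0575) were lost. Jak2, the kinase of the type II receptor, fell by 0.58 on the log2 scale (adjusted p = 0.000788), Ifngr2 fell by 0.55 (adjusted p = 0.000492) and Irf2, a repressor of interferon-induced genes, fell by 0.45 (adjusted p = 0.00553). With the libraries scaled to equal sums, 0 genes of this list were called in any comparison. That scaling called 2.69% of all genes higher and 1.76% lower at 20 against 2 months, and 2.69% and 1.51% at 28 against 2 months.

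**Figure D3:**
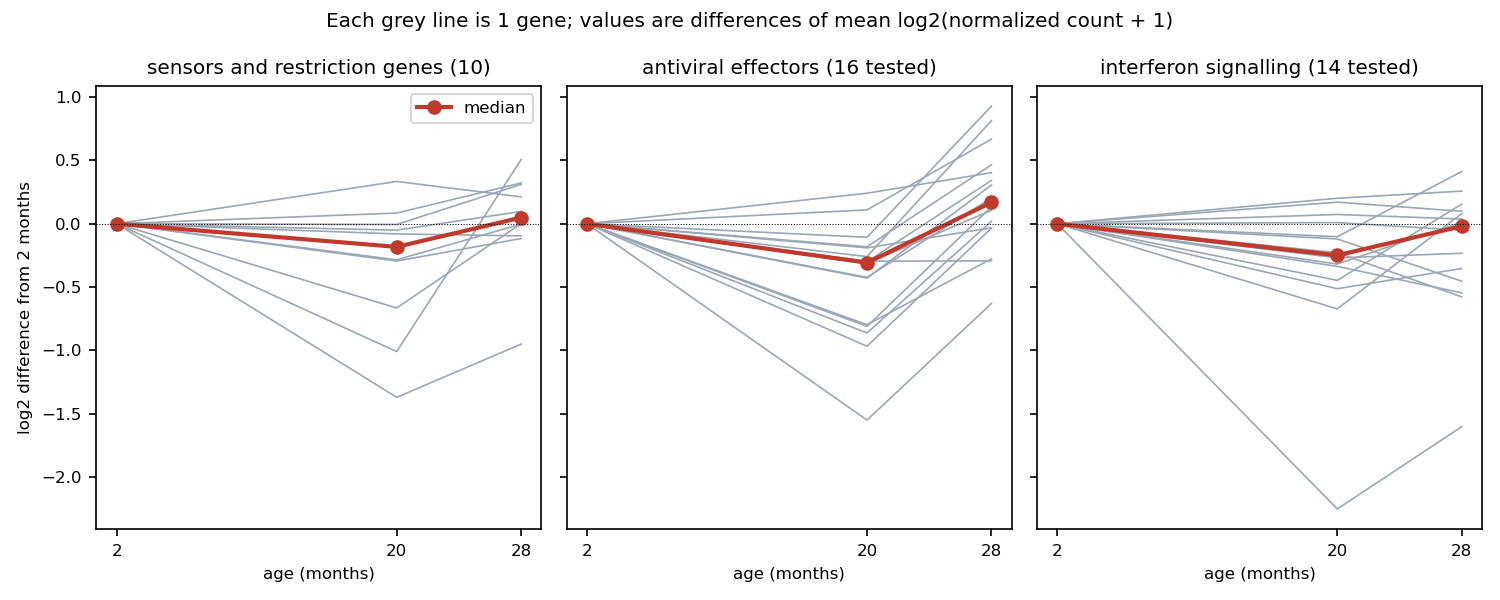
Log2 difference from 2 months (vertical axis, mean log2(normalized count + 1)) against age in months for the 10 sensors and restriction genes, 16 antiviral effectors and 14 interferon signalling genes; each grey line is 1 gene and red is the list median. The medians at 20 months are -0.18, -0.31 and -0.25, and those at 28 months are 0.05, 0.17 and -0.02.

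The counts of called genes in the lists of DNA sensing, endosomal receptors and retroelement silencing were small, and are to be read beside the shares of all genes called (9.42% higher and 7.13% lower at 20 against 2 months, 7.53% and 6.24% at 28 against 2 months). Of 15 tested DNA sensing genes, 1 was higher and 1 lower at 20 against 2 months: Ifi205 rose from 90.7 ± 24.8 to 161 ± 10.6 (0.85, adjusted p = 0.0282), and Tmem173, which encodes the adaptor STING, fell from 115 ± 20.6 to 67.5 ± 4.51 (-0.74, adjusted p = 0.0348). At 28 against 2 months 2 were lower, Dnase1l1 (-0.39, adjusted p = 0.0048) and Banf1 (-0.38, adjusted p = 0.0315). Of 9 tested endosomal receptors and their partners, the receptor Tlr7 was higher (1.77, adjusted p = 0.0389, but 0.089 with edgeR and 0.0501 with DESeq2) and Unc93b1, the chaperone of these receptors, lower (-0.88, adjusted p = 0.00512) at 20 against 2 months. Of 15 tested silencers of retroelements, 2 were higher at 20 against 2 months, Atf7ip, a partner of the methyltransferase Setdb1 (0.58, adjusted p = 0.00448), and Daxx, a histone chaperone (0.46, adjusted p = 0.012), and Atf7ip was also higher at 28 against 2 months (0.42, adjusted p = 0.0267). Without any 1 library the calls of Unc93b1, Dnase1l1 and, at 20 against 2 months, Atf7ip held. With equal sums 0 genes of these lists were called at 20 against 2 months (2.69% higher and 1.76% lower of all genes) or 28 against 2 months (2.69% and 1.51%). The call of Dnase1l1 was also lost without the 3 libraries numbered 3 (adjusted p = 0.0645). The others were lost without some libraries, with a highest adjusted p of 0.0973 for Ifi205 and 0.117 for Tmem173 (both without 2-month replicate 1), 0.124 for Banf1 (likewise), 0.111 for Tlr7 (without 20-month replicate 2), 0.0581 for Daxx (without 20-month replicate 1) and 0.118 for Atf7ip at 28 against 2 months (without 28-month replicate 1). A term for the libraries numbered 3 gave 3 DNA sensing genes lower and 3 silencers higher at 20 against 2 months. At 28 against 2 months it gave 3 silencers, 1 endosomal gene and 1 DNA sensing gene higher. Over all genes it called 1210 lower at 20 against 2 months (939 in the main fit) and 1306 higher at 28 against 2 months (992). Of 12 tested genes of the response to double-stranded RNA, 0 were called in any comparison by limma or edgeR, and DESeq2 called 1 higher at 20 against 2 months; the unadjusted limma p was under 0.05 for Ppp1r15a at 20 against 2 months and for Eif2ak1 at 28 against 2 months.

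MBD signal at the 10 genes was read from 500-bp bins that overlap the 1 kb around the annotated 5′ end of each gene, as the mean normalized count per bin. In muscle, Trex1 and Zbp1 carried the most signal at 2 months (36.7 and 20.3), followed by Ifih1 (12.4) and Samhd1 (10.9), while Tlr3 and Mov10 were at 0. Mov10 was at 0, 0 and 2.76 at 2, 20 and 28 months in muscle. Samhd1 was at 10.9, 3.65 and 10.4, and its start window held 29 CpG dinucleotides in 300 bases against a median of 7 over all windows. Adar was at 3.94, 1.12 and 12.1, Tlr3 at 0, 2.53 and 7.22, and Eif2ak2 at 1.82, 1.68 and 7.86. Trex1 was at 36.7, 33.7 and 20.0 in muscle and at 31.8, 51.9 and 72.3 in T cells.

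The median log2 difference of the 10 genes at 28 against 2 months in muscle was 0.90 on the log2(mean normalized count + 1) scale, beside 0.42 over 21533 genes, and 7 of 10 were above 0 (65.4% of all genes). With the members at 0 set to the floor of 3 reads it was 0.86, over 2 kb around the start it was 0.21, and with equal sums it was 1.38. At 20 against 2 months it was -0.04 beside -0.05. Over whole genes the direction was opposite: all 10 members were lower at 28 than at 2 months in muscle, as were 67.1% of all genes, and all 10 were higher in T cells, as were 80.9% of all genes. With the MBD libraries scaled to equal sums, 5 of 10 were lower in muscle (31.0% of all genes) and 5 of 10 higher in T cells (40.1%). Beside the RNA values, Mov10 had lower RNA at 20 months with MBD signal of 0 at both 2 and 20 months at its start. Over the whole Mov10 gene the muscle signal was 32.9, 27.2 and 22.8 at 2, 20 and 28 months. At the start of Adar the muscle signal was lowest at 20 months, as was its mean RNA. A link between RNA and MBD signal was not tested.

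**Figure D4:**
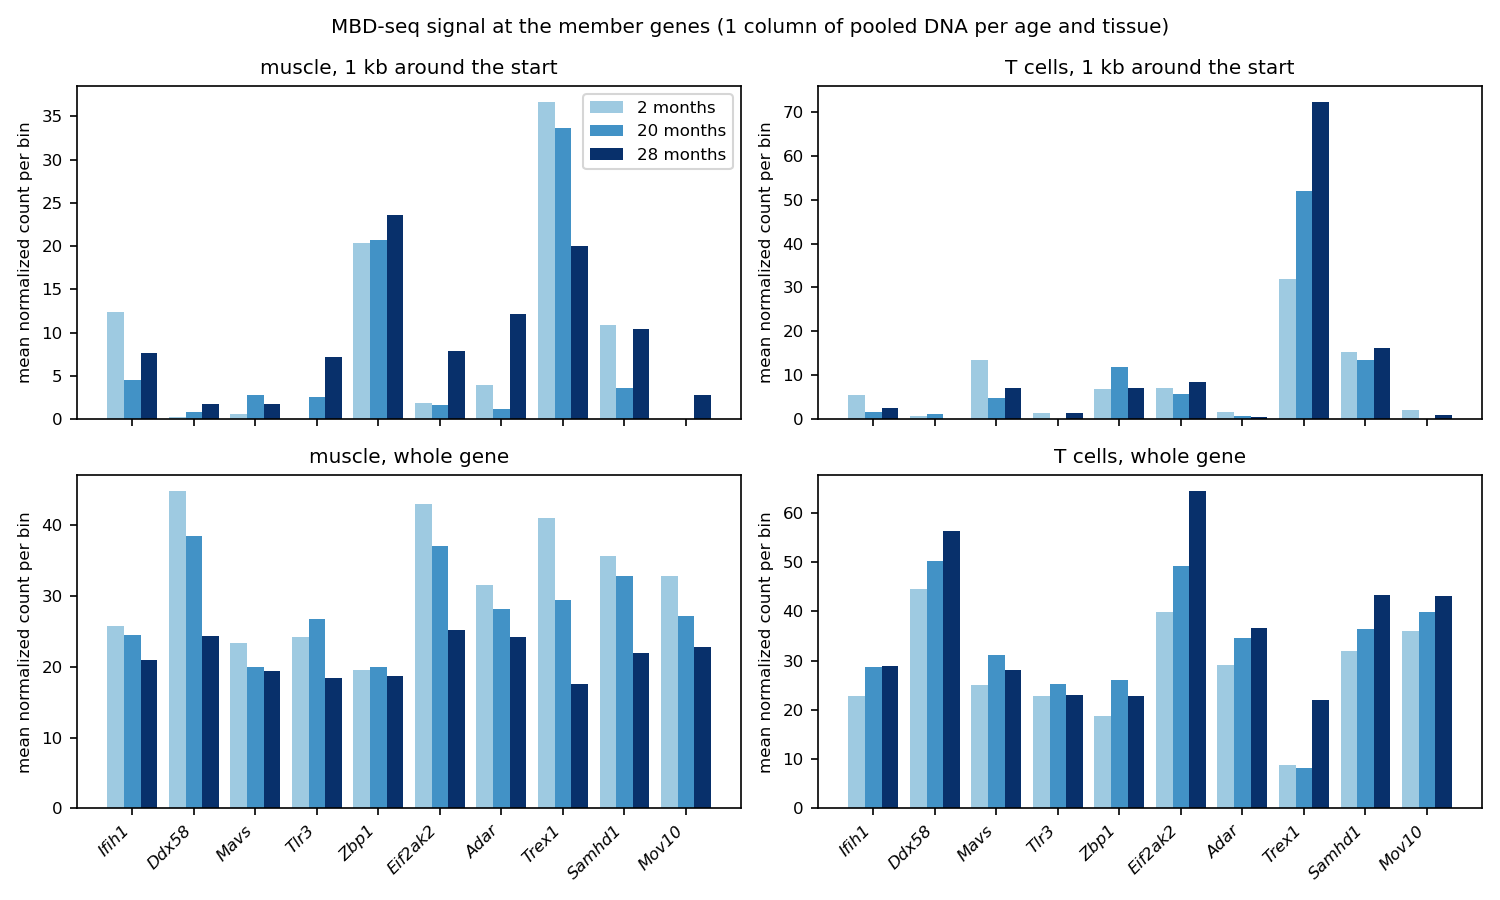
MBD-seq signal (mean normalized count per 500-bp bin, vertical axes from 0) of the 10 genes at 2, 20 and 28 months in muscle and in T cells, for 1 kb around the start and for the whole gene; each bar is 1 column of the table, from DNA pooled by age. Over whole genes the 28-month bar is below the 2-month bar for all 10 genes in muscle and above it for all 10 in T cells.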

How the data were processed

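Per the labels, the series holds 9 muscle RNA-seq libraries (3 per age) and MBD-seq libraries of pooled DNA from muscle and T cells. RNA was poly-A selected. The authors trimmed reads with Trim Galore, aligned them to mm10 (Hisat2 in the methods, TopHat in the processing notes), counted them per refSeq gene with htseq-count and divided by DESeq2 size factors; the strand setting is not given in the sources used here. The deposited RNA signal is thus reads divided by 1 factor per library, and 100% of values came back as whole reads within a relative tolerance of 1e-06. The deposited MBD signal holds reads per 500-bp bin (Bowtie2, bedtools) divided by a size factor; its muscle columns name the age but not which of 2 capture rounds of the same DNA. Bins missing from the table were set to 0. The 5 summary rows that name no gene held 37.9% to 47.7% of reads and were left out.

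The main test was limma-trend (limma 3.58.1, R 4.3.3) on log2(normalized count + 1) in all 9 libraries with age as the only term, over 13178 genes with a mean of at least 10, adjusted by Benjamini-Hochberg and called at 0.05. Fold changes on this scale understate low genes. edgeR 4.0.16 (quasi-likelihood) and DESeq2 1.42.0 on the recovered reads, other pseudocounts, filters and scalings, a replicate block, a batch term and the removal of libraries were alternatives. The scripts were tested on simulated data. With 3 against 3 libraries an exact permutation cannot go below p = 0.1, and permutations were two-sided. MBD values have 1 column per age and no test. Exon lengths and positions are from RefSeq GRCm38.p6 (mm10). All 10 members were named; from each other list, up to 4 genes with the largest called difference; Ifitm3 at 20 against 2 months is named beyond that rule, after its value was seen. The members, lists and tests were chosen with earlier results of these data known. The values of 1 gene of the interferon signalling list are not reported here.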

Additional observations from a re-analysis of the deposited data

Results flagged for a closer look

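The MBD medians of the 10 genes went in opposite directions in muscle and T cells at 28 against 2 months. Around the gene starts the median log2 difference was 0.90 in muscle (0.21 over 2 kb and 1.38 with equal sums) and -0.35 in T cells, and over whole genes it was -0.45 in muscle and 0.32 in T cells. All 21533 genes had medians of 0.42 and 0.17 around the starts and of -0.22 and 0.25 over whole genes, so that the whole-gene directions were those of the whole table. With the members at 0 set to the floor of 3 reads, the T-cell value around the starts was 0.02. With the libraries scaled to equal sums, the whole-gene medians were -0.02 in muscle and 0.004 in T cells, beside 0.20 and -0.05 over all genes. Muscle and T cells were not compared by a test, since each had 1 column per age.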

How the results depend on the processing

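Of 624 refitted differences of single members, 34 changed sign, all uncalled before and after, 22 lost a call and 11 gained one. The 20-month and 28-month counts rest on single genes near the threshold. For members lower at 20 against 2 months, the count of 1 became 0 without a filter on low values, with a mean of at least 50 (which left out Mov10), with libraries rescaled to the same sum and with quantile normalization, and 2 with the replicate block or the batch term; leaving out libraries gave 0 to 1. For members higher at 20 against 2 months, the count of 0 became 1 with edgeR, DESeq2, the replicate block or the batch term, and 0 to 1 when libraries were left out. For members higher at 28 against 2 months, the count of 1 became 0 without a filter, with the same sum per library and with only the 2 ages compared, and was 0 to 1 when libraries were left out. The F-test count of 0 became 1 with the replicate block or the batch term (Adar), 2 with DESeq2, and 0 to 1 when libraries were left out. The other counts stayed at 0. The causes were not tested, apart from the filter at 50.

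The replicate numbers did not pair the libraries: deviations of same-numbered libraries correlated at 0.11 to 0.16 for number 3, but at -0.01 to 0.07 for number 1 and -0.04 to 0.10 for number 2. With the replicate block, Mavs (adjusted p = 0.0444) and Adar (0.0368) at 20 against 2 months passed. The median start MBD change in muscle at 28 against 2 months, 0.90, was 0.21 over 2 kb, 1.37 with a pseudocount of 0.25, 1.38 with the same sum per library and -0.45 over whole genes; at 20 against 2 months, -0.04, it was -0.18 over whole genes and 0.0003 with the same sum. Read counts were lowest for Zbp1 (2 to 35 per library) and Mov10 (10 to 106); the effect of depth on their tests was not tested.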
